A study of Mus musculus with 7 samples.

Results

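The genes examined here are 8 markers used to tell apart neurons of the superior colliculus (SC), the visual and orienting center of the dorsal midbrain. They are *Calb1*, *Calb2*, *Pvalb*, *Ntsr1*, *Cbln2*, *Npnt*, *Rorb* and *Etv1*, chosen by symbol from the 52636 genes counted, and all 8 were among the 21817 genes with enough counts to be tested. RNA-seq was performed on the dorsal midbrain of 7 newborn mice, 3 controls and 4 *Brn3b* conditional knockouts (cKO). All 7 mice carried *En1-Cre*, a driver active in the midbrain and hindbrain, and a *Brn3b* allele flanked by loxP sites. The second *Brn3b* allele was wild type in controls and null in cKO, so the controls were heterozygous for *Brn3b* wherever Cre had acted. Postnatal day 4 (P4) was the age of controls A2 and A6 and of cKO mice B1 and B8, whereas control A4 was P3 and cKO mice B7 and B9 were P2. P2 mice were therefore found only among cKO, and for them age and genotype cannot be told apart.

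SC neurons are arranged in layers with different inputs and outputs. The superficial layers receive axons of retinal ganglion cells, and their wide-field neurons send axons to the lateral posterior thalamus. The intermediate and deep layers combine several senses and drive orienting and defensive movement. *Calb1*, *Calb2* and *Pvalb* encode calbindin, calretinin and parvalbumin, EF-hand proteins that bind and buffer calcium and label different classes of neurons. *Ntsr1* encodes the high-affinity neurotensin receptor, and a Cre line made with it reaches wide-field neurons. *Cbln2* encodes a secreted cerebellin that links presynaptic neurexins to postsynaptic delta glutamate receptors, and *Npnt* encodes nephronectin, an extracellular matrix ligand of integrin α8β1. *Rorb* encodes an orphan nuclear receptor, and *Etv1* an ETS transcription factor of the PEA3 group that the study used as a marker of intermediate-layer neurons. Brn3b (*Pou4f2*) is itself a POU-domain transcription factor made by some SC neurons.

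The libraries held 23588248 to 87572085 counts on genes, with a median of 39251318. Levels are given in CPM, the count of a gene relative to the size of its library after TMM scaling in edgeR. *Pou4f2* was at 45.8 to 47.4 CPM in controls and 9.65 to 11.6 CPM in cKO, a log2 fold change of −2.16 (adjusted p = 5.66e-04 by the Benjamini-Hochberg method, from a quasi-likelihood test in edgeR), so every library matched its label. Markers of the midbrain were present in all libraries, with *Otx2* at 96.3 CPM or more, but not all were even. *En1* ran from 2.78 CPM in B1 to 12.3 CPM in B8, and *En2* from 11.15 CPM in B1 to 27.4 CPM in B9. Markers of neighboring tissues were mixed. *Gabra6* and *Atoh1* of cerebellar granule neurons and *Gbx2* of the thalamus were at 0.404 CPM or less, but other genes of the same lists were present in every library, with *Slc1a6* and *Car8* (cerebellum) at 25.7 CPM or more, *Emx2* and *Neurod6* (cortex) at 9.15 CPM or more and *Prkcd* and *Slitrk6* (thalamus) at 4.48 CPM or more. *Tbr1*, a marker of cortical neurons, was at 3.55 CPM in control A4 and at 0.855 CPM or less elsewhere. The cKO library B8 stood apart from the other cKO libraries, lying outside their range for 75.4% of the genes tested, and for 7 of the 8 markers.

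No marker passed the threshold in the comparison of all 4 cKO with all 3 control mice. Of the 8 markers, 0 had an adjusted p under 0.05, against 0.00458% of all genes tested (1 gene, *Pou4f2*). With DESeq2 0 were called, against 5.50% of the 36248 genes it gave a p-value. Its filter leaves genes with few counts without an adjusted p, so the share among genes that could be called was higher. An unadjusted edgeR p under 0.05 was found for 1 of the 8, *Calb2*, whereas 30.4% of all genes had one, and with DESeq2 also for 1, against 20.5%. Control and cKO levels overlapped for all 8, and 14.0% of all genes showed no overlap. Fitted differences lay above 0 for 5 markers and below 0 for 3, with a median log2 fold change of 0.09 against 0.0025 over all genes tested. The p-values measure the spread between these 7 mice. In whole tissue, fewer neurons of a type and less RNA per neuron cannot be told apart.

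**Figure D1:**
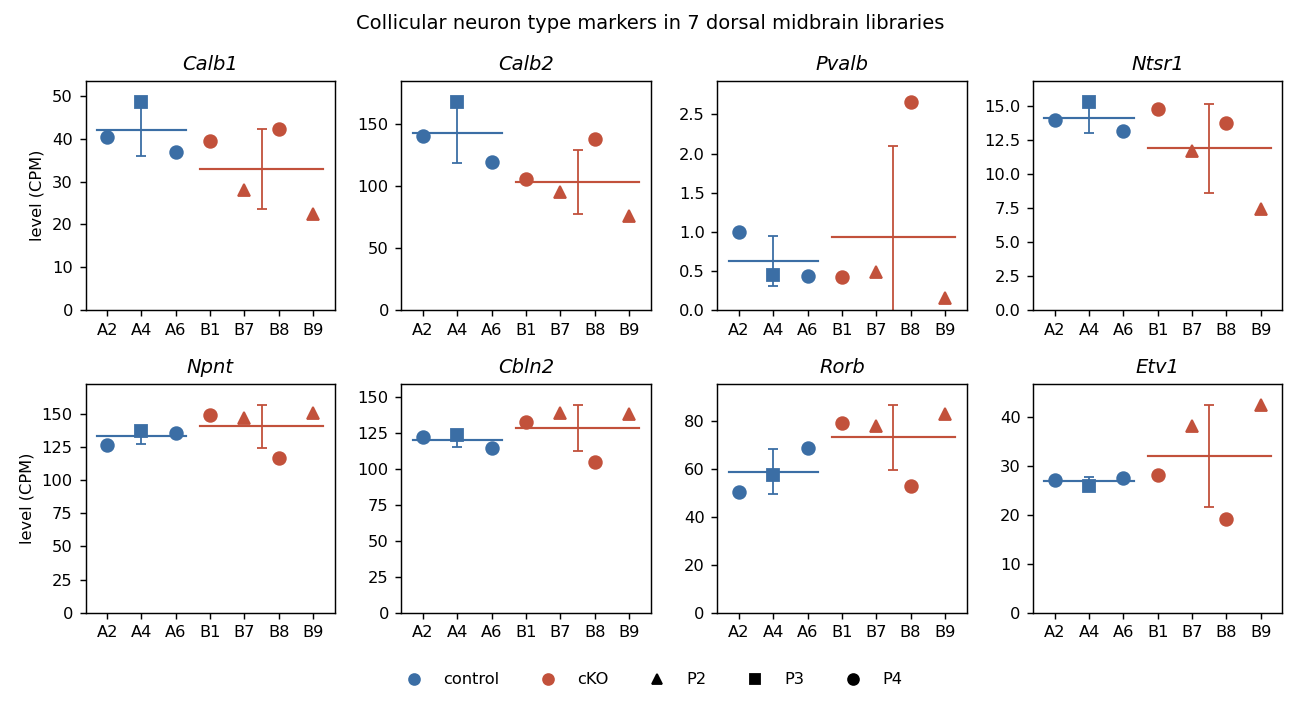
Level of each marker in CPM (y axis) in each of the 7 mice (x axis), with controls in blue and cKO in red and the postnatal day given by the symbol. Lines and bars are the group mean and SD (the lower bar of *Pvalb* in cKO is cut at 0), and the groups overlap in all 8 panels, most often because B8 lies with the controls or on the far side of them.

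The calcium-binding markers *Calb2* and *Calb1* were lower on average in cKO, without passing the threshold. *Calb2* was at 140 CPM in A2, 168 in A4 and 120 in A6, and at 105 in B1, at 95.3 and 75.4 in the P2 mice B7 and B9 and at 137.5 in B8. Every cKO mouse except B8 lay below every control. The 3 controls averaged 142 ± 24.2 CPM (SD) and the 4 cKO mice 103 ± 25.9 CPM, or 72.6% of that. This gave a log2 fold change of −0.46 (standard error 0.20, 95% interval −0.92 to −0.0038, unadjusted p = 0.0485 and adjusted p = 0.162 from edgeR), and a two-sided exact permutation test on log2 CPM, with 35 splits of the mice, gave p = 0.114. Those splits allow no p below 0.0571. Without B8, *Calb2* was at −0.63 (adjusted p = 0.00423) in a fit that called 46.7% of all genes. Once library trends with exon length and GC content were removed it was −0.28 without B8 (adjusted p = 0.138) and −0.24 with all mice (adjusted p = 0.311).

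*Calb1* was at 40.4 CPM in A2, 48.6 in A4 and 36.9 in A6. In cKO it was at 39.4 CPM in B1 and 42.2 in B8, and at 28.0 in B7 and 22.4 in B9. The P2 mice B7 and B9 lay below all controls, whereas both P4 cKO mice lay within the control range. The 3 controls averaged 42.0 ± 6.01 CPM (SD) and the 4 cKO mice 33.0 ± 9.33 CPM, with a log2 fold change of −0.35 (standard error 0.22, 95% interval −0.85 to 0.15, adjusted p = 0.295 from edgeR). Without B8 it was −0.50 (adjusted p = 0.0425) and without B9 −0.19 (adjusted p = 0.546). It was −0.65 with all mice once library trends with exon length and GC content were removed (adjusted p = 0.193). In the P4 mice alone it was 0.080 (adjusted p = 0.989). For both calbindin and calretinin genes the highest control was A4, the library with the most *Tbr1*, and the part of other tissue in these levels was not tested. Leaving A4 out moved *Calb2* to −0.33 (adjusted p = 0.456) and *Calb1* to −0.23 (adjusted p = 0.631).

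Markers of whole cell classes gave 0 calls in the same comparison. Of 6 general neuron markers 0 were called, and 3 that were lower and 1 that was higher had an unadjusted p under 0.05, beside 30.4% of all genes. *Rbfox3*, the gene of the neuronal nuclear protein NeuN, was at 185, 260 and 218 CPM in A2, A4 and A6 and at 132, 122, 207 and 129 CPM in B1, B7, B8 and B9. As for *Calb2*, A4 was highest and B8 lay with the controls (log2 fold change −0.58, adjusted p = 0.138). *Map2* was at 0.81 in the same fit (adjusted p = 0.138), and the sum of the 6 genes was 5482 to 6217 CPM in controls and 5489 to 6172 CPM in cKO. The 5 red blood cell genes, 0 of them called, summed to 496 CPM in A4 and to 179 CPM or less elsewhere, with a median log2 fold change of −1.13. Medians were 0.23 for 5 astrocyte, −0.10 for 6 oligodendrocyte lineage, −0.20 for 5 microglia, 0.37 for 5 endothelial and −0.11 for 4 meningeal genes, with 0 called in each list. In those 5 lists together, 3 genes that were higher and 1 that was lower had an unadjusted p under 0.05, a smaller share than the 30.4% of all genes. *Rbfox3* and *Map2* were named after their values were seen, and the part of these cell classes in the *Calb1* and *Calb2* levels was not tested.

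*Pvalb* was barely detected at this age, and its counts were 24 in A2, 18 in A4, 12 in A6 among controls, and 12 in B1, 31 in B7, 13 in B9 and 108 in B8. These counts correspond to 0.996, 0.450 and 0.438 CPM in the controls and to 0.427, 0.481, 2.66 and 0.153 CPM in B1, B7, B8 and B9. B8 was above and B9 was below every other mouse. The 95% Poisson interval, which covers counting error only, was 2.18 to 3.21 CPM in B8 and 0.638 to 1.48 CPM in A2, the next highest library. The log2 fold change was 0.57 (standard error 0.87, 95% interval −1.39 to 2.52, adjusted p = 0.671 from edgeR), so changes from 0.381 times to 5.75 times the control level lie within the interval. Without B8 the sign turned, to −0.85 (adjusted p = 0.246).

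Genes of hindbrain and ventral neurons were also high in B8. The serotonergic genes *Tph2*, *Slc6a4* and *Fev* summed to 70.9 CPM in B8 and to 2.62 to 19.4 CPM elsewhere, and all 3 had their highest level in B8. The cholinergic genes *Slc18a3*, *Chat* and *Slc5a7* summed to 8.13 CPM in B8 and to 4.81 CPM or less elsewhere, although *Chat* itself was at 0.246 CPM in B8 against 0.249 CPM in A2. The Purkinje cell gene *Pcp2* was at 0.443 CPM in B8 and from 0.282 to 1.55 CPM elsewhere. These lists were added after the levels in B8 were seen, and their part in the *Pvalb* level was not tested.

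**Figure D2:**
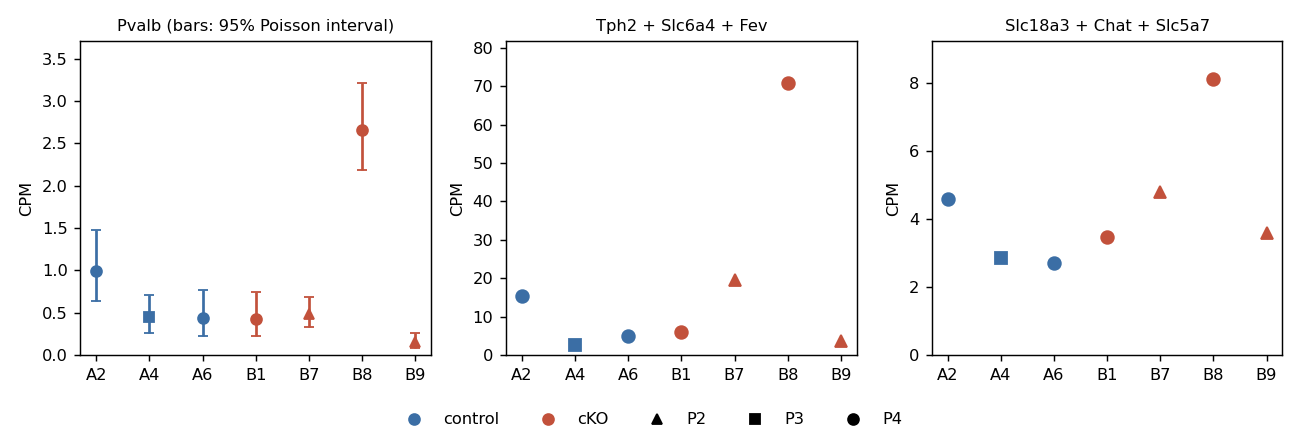
CPM of *Pvalb* (left, with 95% Poisson intervals) and summed CPM of serotonergic (middle) and cholinergic genes (right) in each mouse, with symbols for postnatal day. B8 is the highest library in all 3 panels, at 2.66, 70.9 and 8.13 CPM.

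The neurotensin receptor gene *Ntsr1*, a marker of wide-field neurons, was at 14.0 CPM in A2, 15.3 in A4 and 13.2 in A6. In cKO it was at 14.8 CPM in B1 and 13.8 in B8, and at 11.7 in B7 and 7.43 in B9. As with *Calb1*, only the P2 mice lay below the controls, and B9 was the lowest. The 3 controls averaged 14.2 ± 1.09 CPM (SD) and the 4 cKO mice 11.9 ± 3.28 CPM, with a log2 fold change of −0.25 (standard error 0.23, 95% interval −0.77 to 0.27, adjusted p = 0.465 from edgeR). B9 set much of this value, which was −0.07 without it (adjusted p = 0.811), and with all mice it was also −0.07 once library trends with exon length and GC content were removed (adjusted p = 0.849).

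The secreted proteins showed the smallest spread of the markers. *Cbln2* was at 122 CPM in A2, 124 in A4 and 115 in A6, and at 133 in B1 and 105 in B8, and at 139 in B7 and 138 in B9. *Npnt* was at 127 CPM in A2, 137 in A4 and 136 in A6, and at 149 in B1 and 116.5 in B8, and at 147 in B7 and 151 in B9. In both genes B1, B7 and B9 were above all controls and B8 was below all of them. The highest library was 1.32 times the lowest for *Cbln2* and 1.29 times for *Npnt*. The log2 fold changes were 0.10 for *Cbln2* (standard error 0.14, adjusted p = 0.625 from edgeR) and 0.08 for *Npnt* (standard error 0.13, adjusted p = 0.687). Their 95% intervals, −0.20 to 0.40 and −0.21 to 0.38, leave room for cKO levels between 0.863 and 1.32 times those of controls. Without B8 the changes were 0.18 (adjusted p = 0.144) and 0.16 (adjusted p = 0.200), still short of the threshold.

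The transcription factors *Rorb* and *Etv1* were higher on average in cKO, without passing the threshold. *Rorb* was at 50.4 CPM in A2, 57.4 in A4 and 68.9 in A6, and at 79.2 in B1 and 52.9 in B8, and at 77.8 in B7 and 83.0 in B9. B1, B7 and B9 lay above every control, and B8 lay between A2 and A4. The 3 controls averaged 58.9 ± 9.33 CPM (SD) and the 4 cKO mice 73.2 ± 13.7 CPM. The log2 fold change was 0.31 (standard error 0.18, 95% interval −0.10 to 0.73, adjusted p = 0.258 from edgeR; exact permutation test, two-sided p = 0.171). Without B8 it was 0.44 and passed the threshold (adjusted p = 0.0116), but once library trends with exon length and GC content were removed it was −0.25 with all mice (adjusted p = 0.268) and −0.27 without B8 (adjusted p = 0.134).

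*Etv1* had nearly equal levels in the controls, at 27.1 CPM in A2, 26.0 in A4 and 27.6 in A6. It was at 28.2 CPM in B1 and 19.2 in B8, and at 38.2 in B7 and 42.6 in B9. The P2 mice were well above the controls, B1 was just above them and B8 was the lowest of the 7 libraries. The SD was 0.837 CPM in controls (n = 3) and 10.5 CPM in cKO (n = 4), around means of 26.9 and 32.1 CPM. The log2 fold change was 0.26 (standard error 0.25, 95% interval −0.30 to 0.81, adjusted p = 0.485 from edgeR). It was 0.43 without B8 (adjusted p = 0.0292), 0.096 without B9 (adjusted p = 0.815) and −0.02 with age as a covariate (adjusted p = 0.954). With the same correction it was −0.42 with all mice (adjusted p = 0.136) and −0.38 without B8 (adjusted p = 0.0446).

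**Figure D3:**
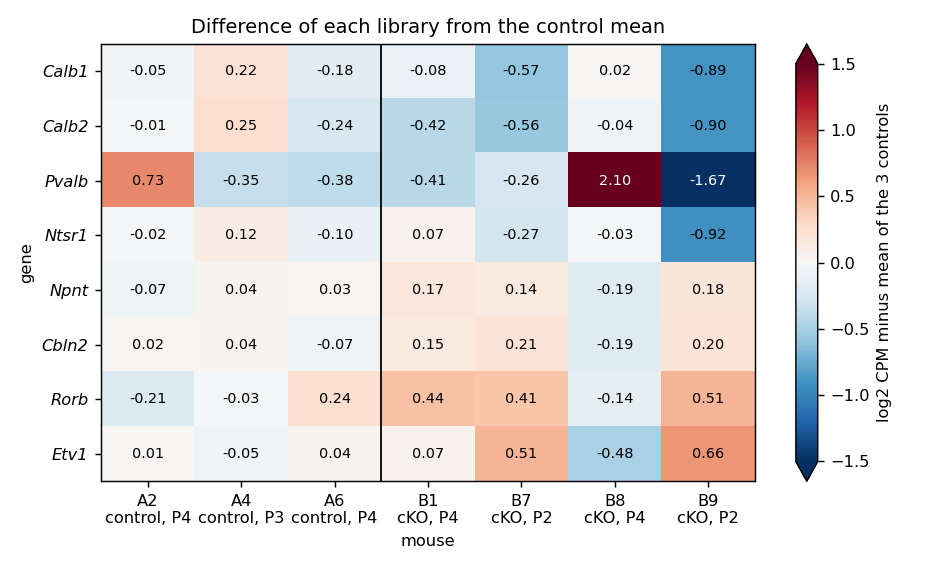
Log2 CPM of each marker in each mouse minus the mean log2 CPM of the 3 controls, with red above and blue below that mean and colors saturating at 1.5. B8 is opposite in sign to B1, B7 and B9 for *Npnt*, *Cbln2*, *Rorb*, *Etv1* and *Pvalb*, and close to 0 for *Calb1*, *Calb2* and *Ntsr1*.

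The calls depended on which cKO mice were included. Without B8, edgeR called 46.7% of all genes, and of the markers it called 2 higher (*Rorb* and *Etv1*) and 2 lower (*Calb1* and *Calb2*), so 4 of 8 is near the share of all genes. In limma-voom, which gave B8 a weight of 0.167, 48.5% of all genes and 3 of the 8 markers passed (*Rorb* higher, *Calb1* and *Calb2* lower). With any other mouse left out, 0 of the 8 markers were called.

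The cKO mice of each age were next set against the same 3 controls, although the P4 set holds B8, so age and this library cannot be told apart in it. With the P2 mice B7 and B9, 46.9% of all genes and 5 of the 8 markers were called. *Etv1* was higher by 0.57 on the log2 scale (adjusted p = 0.00192) and *Rorb* by 0.43 (adjusted p = 0.0184). *Calb1* was lower with a log2 fold change of −0.76 (adjusted p = 0.00160), *Calb2* with −0.76 (adjusted p = 0.00159) and *Ntsr1* with −0.59 (adjusted p = 0.0313). With the P4 mice B1 and B8, 0 of the 8 were called, against 0.00476% of all genes, and *Etv1* was at −0.18 (adjusted p = 0.716), *Rorb* at 0.17 (adjusted p = 0.764), *Calb1* at −0.03 (adjusted p = 0.946) and *Calb2* at −0.22 (adjusted p = 0.681). With the P3 control left out as well, so that all mice were P4, *Calb2* was at −0.093 (adjusted p = 0.989). These fits share their controls.

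Within the cKO mice, P2 and P4 levels did not overlap for 54.7% of all genes, and for 5 of the 8 markers. Among the markers, *Etv1* and *Cbln2* were higher at P2, where 27.2% of all genes were, and *Ntsr1*, *Calb1* and *Calb2* were lower at P2, where 27.5% were. The P2 mean was 170% of the P4 mean for *Etv1*, 66.8% for *Ntsr1*, 61.8% for *Calb1* and 70.3% for *Calb2*. Of 9 genes known to fall after birth, 4 were higher in both P2 mice than in the other 5 libraries, as were 22.5% of all genes, and 0 were lower. *Dcx*, a gene of immature neurons named after its values were seen, was at 1384 and 1430 CPM in B7 and B9, at 761 CPM in B1, and from 429 to 481 CPM in B8 and the controls. *Sox4*, also named after its values were seen, was at 124 and 148 CPM in B7 and B9, 120.5 CPM in B1, 178 CPM in B8 and 156 to 243 CPM in controls. Without *Dcx* the list summed to 773 and 897 CPM in the P2 mice, within the 592 to 899.6 CPM of the others. Of 8 genes known to rise after birth, 3 were lower in both P2 mice than in the other 5 libraries, as were 21.9% of all genes, and 0 were higher. Their sums were 440 and 391 CPM in B7 and B9, against 362 to 407 CPM in controls and 521 and 439 CPM in B1 and B8. With 2 mice per age no test was run, and the part of maturation in the marker levels was not tested.

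**Figure D4:**
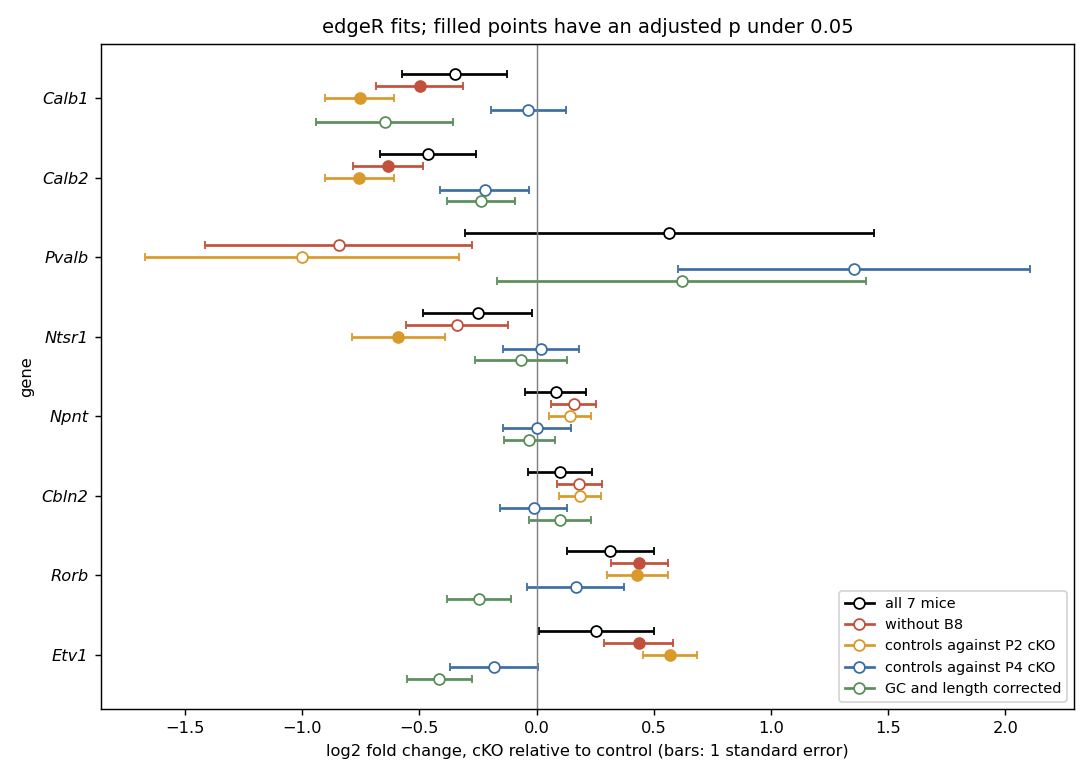
Log2 fold change of cKO relative to control mice (x axis) for each marker (y axis) in 5 edgeR fits, with bars of 1 standard error and filled points for an adjusted p under 0.05. Filled points appear only without B8 and against the P2 mice, and the corrected values of *Etv1* and *Rorb* lie on the other side of 0.

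Gene length and base composition moved with the group difference. The median log2 fold change was −0.32 over genes with up to 1836 bp of exon and 0.33 over genes above 5750 bp, the shortest and the longest of 4 equal bins. By GC content of the longest transcript it was 0.23 over genes up to 44.0% and −0.29 over genes above 53.8%. *Etv1*, with 13296 bp of exon and 39.8% GC, and *Rorb*, with 11076 bp and 41.6%, are in the longest and the most GC-poor bin, and *Calb2*, with 1743 bp and 53.5%, is in the shortest bin. After a smooth trend on both properties was removed from each library, *Etv1* was at −0.42 (adjusted p = 0.136) and *Rorb* at −0.25 (adjusted p = 0.268), both with their sign turned. *Calb2* moved to −0.24 (adjusted p = 0.311) and *Calb1*, the most GC-poor marker at 36.8%, to −0.65 (adjusted p = 0.193). In this fit 0 of the 8 were called, and 2 had an unadjusted p under 0.05 (*Etv1* and *Calb1*), against 25.9% of all genes.

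With the same correction and B8 left out, 33.0% of all genes and 2 of the 8 markers were called, both lower, where 18.9% of all genes were. They were *Calb1*, at −0.95 (adjusted p = 0.00431), and *Etv1*, at −0.38 (adjusted p = 0.0446). *Etv1* was thus called higher or lower in cKO without B8 according to whether the correction was applied. *Rorb* was at −0.27 (adjusted p = 0.134) and *Calb2* at −0.28 (adjusted p = 0.138). Of the markers whose calls changed, only *Calb1* was lower past the threshold without B8 both with and without the correction. In both fits the cKO mice were B1 and the P2 mice B7 and B9, and no control was P2. *Calb1* in B1, at 39.4 CPM, lay within the control range. Against the P4 cKO mice B1 and B8 the *Calb1* change was −0.03 (adjusted p = 0.946 from edgeR, without the correction).

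All 8 markers are protein-coding, and in GENCODE vM21 on GRCm38 no exon of another gene overlaps theirs on either strand. *Calb1* lies at chr4:15881264-15908064 on the plus strand, *Calb2* at chr8:110137502-110168210 on the minus strand and *Pvalb* at chr15:78191114-78206400 on the minus strand. *Ntsr1* lies at chr2:180499976-180544980 (plus), *Cbln2* at chr18:86711110-86718283 (plus) and *Npnt* at chr3:132881745-132950291 (minus). *Rorb* lies at chr19:18930605-19111196 (minus) and *Etv1* at chr12:38779380-38870484 (plus).

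Divided by exon length, the control level was highest for *Calb2*, at 81.7 ± 13.9 CPM per kb (SD, n = 3). *Cbln2* followed at 41.5 ± 1.67 and *Npnt* at 26.5 ± 1.11 CPM per kb. *Calb1* was at 8.66 ± 1.24, *Rorb* at 5.32 ± 0.842, *Ntsr1* at 3.62 ± 0.278, *Etv1* at 2.02 ± 0.0630 and *Pvalb* at 0.603 ± 0.306 CPM per kb. No neighbors in this order overlapped between their control ranges. With the longest transcript as the length, *Etv1* was at 4.09 CPM per kb and came before *Ntsr1*, and the order of the others stayed.

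**Figure D5:**
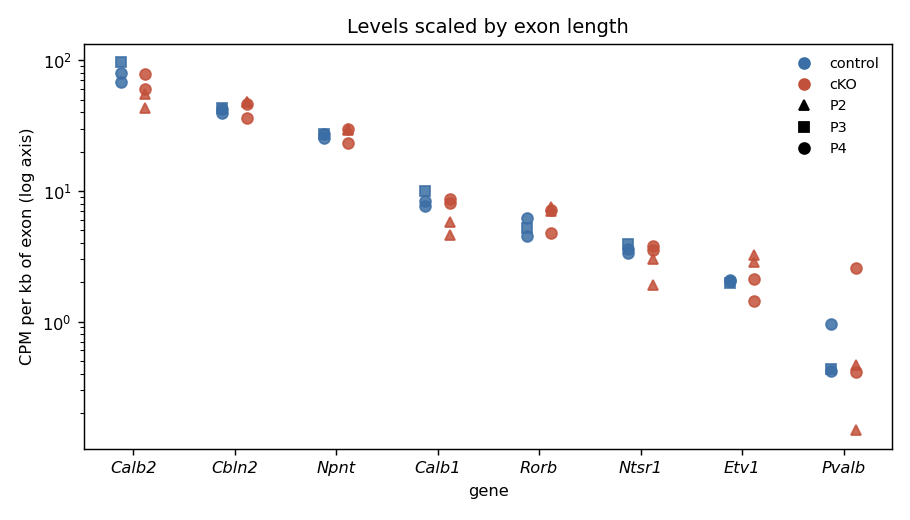
CPM per kb of exon (log axis) for each marker in each mouse, ordered by the control mean, with controls in blue, cKO in red and symbols for postnatal day. Levels run from 81.7 CPM per kb for *Calb2* to 0.603 for *Pvalb* in control means.

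Other genes of the markers' families and pathways were read from the same fit. Of 22 further EF-hand genes 20 were tested and 0 were called, with a median log2 fold change of −0.44. An unadjusted p under 0.05 was found for 8 that were lower and 1 that was higher, or 9 of 20 against 30.4% of all genes. They ranged from *Hpca*, which encodes the neuronal calcium sensor hippocalcin, at −0.74 (adjusted p = 0.138) to *Necab1* at 0.67 (adjusted p = 0.144). Without B8, 12 of these genes were called lower and 1 higher, where 23.1% and 23.7% of all genes were. The same fit called 2 higher and 2 lower of 11 cerebellins and partners, 3 higher of 6 nephronectin partners, 3 higher and 1 lower of 11 PEA3 and FGF genes, and 5 higher and 6 lower of 15 further SC neuron markers. It called 1 higher and 1 lower in each of the ROR and neurotensin lists.

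Among the 11 other cerebellins, C1q-like proteins, neurexins and delta receptors, 0 were called. The median was 0.05, and values ran from *C1ql1* at −0.58 (adjusted p = 0.388) to *C1ql3* at 0.70 (adjusted p = 0.198). Of 6 receptors and matrix partners of nephronectin 0 were called, with a median of 0.75. In this list 4 of 6 genes had an unadjusted p under 0.05, beside 30.4% of all genes, and all were higher: *Frem2*, *Frem1*, *Fras1* and *Itga8*, the last 3 named after their values were seen. *Frem2*, a basement membrane protein gene, was at 5.56, 5.996 and 5.70 CPM in A2, A4 and A6 and at 14.6 in B1 and 7.98 in B8, and at 19.3 in B7 and 17.8 in B9, without overlap between the groups, as for 14.0% of all genes (log2 fold change 1.38, adjusted p = 0.138). *Egfl6* was the lowest of the list at −0.25 (adjusted p = 0.541).

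Of the 11 PEA3 factors and FGF pathway genes 0 were called and 3 had an unadjusted p under 0.05 (*Spred1*, *Spred2* and *Fgfr1*, all higher and, apart from *Spred2*, named after their values were seen), near the 30.4% of all genes, with a median of 0.17 and a range from *Etv4*, a close relative of *Etv1*, at −0.53 (adjusted p = 0.231) to *Spred2* at 0.51 (adjusted p = 0.157). The 4 ROR and REV-ERB receptors and the 3 other neurotensin genes also gave 0 calls, and an unadjusted p under 0.05 for 1 of 4 (*Nr1d1*) and 1 of 3 (*Sort1*), again beside 30.4% of all genes. *Nr1d1* was at −0.47 (adjusted p = 0.138), *Nr1d2* at 0.28 (adjusted p = 0.307), *Sort1*, which encodes sortilin, at 0.48 (adjusted p = 0.138) and *Ntsr2* at −0.30 (adjusted p = 0.403). Of 15 further SC neuron markers 1 was called, *Pou4f2* itself, beside 0.00458% of all genes, and the median was −0.19. An unadjusted p under 0.05 was found for 5 of the 15, beside 30.4% of all genes. *Gad2*, an enzyme of GABA synthesis, was the highest at 0.65 (adjusted p = 0.138), and the other 4 were lower: *Pou4f2*, *Tac2*, *Grp* at −0.85 (adjusted p = 0.138) and *Sst* at −0.57 (adjusted p = 0.145). *Slc32a1*, which encodes the vesicular GABA transporter, was at −0.48 (adjusted p = 0.196). *Tac2*, *Grp*, *Sst* and *Slc32a1* were named after their values were seen.

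The genes whose log2 CPM followed each marker most closely were sought over the 7 libraries among 11699 other protein-coding genes of at least 5 CPM (11700 for *Pvalb*). *Kptn* was closest to *Calb2* (Pearson r = 0.997), *Pimreg* to *Calb1* (r = 0.993), *Rbm14* to *Ntsr1* (r = 0.993) and *Inip* to *Etv1* (r = 0.988). *Pcdhb8* was closest to *Rorb* (r = 0.985), *Fut11* to *Cbln2* (r = 0.982), *Rora*, the gene of a related receptor, to *Npnt* (r = 0.966) and *Penk*, which encodes proenkephalin, to *Pvalb* (r = 0.945). The next were *Prmt2* and *Snx3* for *Calb2*, *Rcn1* and *St6galnac4* for *Calb1*, *Dync1i1* and *Gpc5* for *Ntsr1*, and *Zscan29* and *Zfp2* for *Etv1*. For *Rorb* they were *Socs7* and *Lancl3*, for *Cbln2* *Pcsk2* and *Agpat5*, for *Npnt* *Ddx31* and *Mettl6*, and for *Pvalb* *Rdh13* and *Adgra1*. All these values rest on the same 7 libraries and are a description.

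Promoter windows of 300 bp came from RefSeq (GRCm38.p6, 250 bases before and 50 after an annotated start). The search covered 9 windows of 5 markers, *Etv1*, *Ntsr1*, *Rorb*, *Pvalb* and *Npnt*. No window of the other markers was searched, so the result does not cover the whole set. These 9 windows were searched on both strands for CTCATTAA, a core of the DNA sites bound by Brn3 factors, after the levels were known. It was found in 1 of the 9, and in 303 of the 32851 windows searched as background (0.922%). The window with the match, at the downstream start of *Rorb* (chr19:19001068-19001367, minus strand), is shown because it is where a marker carries these letters, in capitals at positions 208 to 215 from its 5′ end. A match is a description of the sequence and no evidence of binding.

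Rorb downstream start: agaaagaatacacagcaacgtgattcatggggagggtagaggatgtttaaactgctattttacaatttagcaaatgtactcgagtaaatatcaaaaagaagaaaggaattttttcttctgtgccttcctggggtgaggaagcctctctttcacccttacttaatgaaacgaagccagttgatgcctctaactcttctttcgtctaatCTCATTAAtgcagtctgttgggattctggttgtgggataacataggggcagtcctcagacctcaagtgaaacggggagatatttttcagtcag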

How the data were processed

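Dorsal midbrain mRNA libraries of 3 control and 4 cKO mice were sequenced as read pairs. After trimming, the authors used TopHat2 with Bowtie 2 for alignment to GRCm38.p5 and HTSeq for counting on GENCODE vM15, and they deposited raw counts that are not normalized. The strand and overlap options of HTSeq are not given in the sources used here. Genotype and age were taken from the labels, and alleles from the study's methods.

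Entries that name no gene, 30.98% to 38.18% of counted pairs, were left out. Of the 52636 identifiers, 52489 matched GENCODE vM21, and the other 147 held 0.0264% of the counts. No 2 libraries of a group agreed within sampling noise (chi-square per degree of freedom of 8.37 or more), and each mouse counted as 1 replicate. Counts were analyzed in R 4.3.3 with edgeR 4.0.16 (filterByExpr with a minimum count of 10 and a minimum total of 15, TMM, glmQLFit, glmQLFTest), with genotype as the only term, and p-values were adjusted over all genes tested at a threshold of 0.05. For log2 CPM a prior count of 2 was added. The alternatives were DESeq2 1.42.0, limma-voom with quality weights per sample (limma 3.58.1), other scaling factors, filters, ages, thinning to the smallest library and each mouse left out. A smooth correction of exon length and GC content (mgcv 1.9.3), alone and without B8, was added after seeing the data. The fits were also run on simulated counts, with the spread between mice capped and without an outlying library or an age effect. Those runs do not cover these features of the data.

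The markers and lists were chosen with earlier results of these data known. All 8 markers are named, with *Pou4f2*. From each related list, every called gene is named, or otherwise the genes with the highest and lowest log2 fold change among those averaging 1 CPM or more, and for each marker the 3 genes most like it. The values of some genes on these lists are not reported here.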

Additional observations from a re-analysis of the deposited data

Results flagged for a closer look

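In each of the 8 markers the 4 cKO mice were examined for 1 mouse far from the other 3, and 2 values passed Dixon's 95% critical value for 4 samples, where chance flags about 1 in 20 groups. *Pvalb* was at 2.66 CPM in B8, and the nearest cKO mouse was B7 at 0.481 CPM, a gap of 0.869 of the range. *Npnt* was at 116.5 CPM in B8, and the nearest was B7 at 147 CPM, a gap of 0.881 of the range. *Rorb* and *Cbln2* had B8 as their lowest cKO value as well, with gaps of 0.827 and 0.824 just short of the limit. These 4 gaps come from the same library and are not separate observations. Over all genes tested, B8 lay outside the range of the other 3 cKO mice for 75.4%. The share of all genes past Dixon's limit was not computed, so the flags cannot be called particular to these markers.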

How the results depend on the processing

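No paired analysis was possible because no label pairs a control with a cKO mouse. Where a value changed, the cause was not tested. Changes below are log2 fold changes with the adjusted p in parentheses.

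With the controls against the P2 cKO mice, *Etv1* (0.57, 0.00192), *Rorb* (0.43, 0.0184), *Ntsr1* (−0.59, 0.0313), *Calb1* (−0.76, 0.00160) and *Calb2* (−0.76, 0.00159) passed the threshold and *Pvalb* turned (−1.001, 0.245). With limma-voom, *Rorb* (0.38, 0.0358), *Calb1* (−0.46, 0.0364) and *Calb2* (−0.51, 0.0111) passed and *Pvalb* turned (−0.75, 0.279). Against the P4 cKO mice, *Etv1* (−0.18, 0.716), *Ntsr1* (0.019, 0.969) and *Cbln2* (−0.011, 0.980) turned. In the P4 mice alone, *Etv1* (−0.21), *Ntsr1* (0.077) and *Calb1* (0.080) turned, *Calb2* was at −0.093, each at 0.989, and *Pou4f2* (−2.18, 0.192) lost its call. With age in the model *Etv1* turned (−0.021, 0.954). Corrected for exon length and GC content, *Etv1* (−0.42, 0.136), *Rorb* (−0.25, 0.268) and *Npnt* (−0.030, 0.877) turned. When B8 was left out as well, *Etv1* (−0.38, 0.0446), *Rorb* (−0.27, 0.134) and *Pvalb* (−0.61, 0.437) were turned and *Calb1* passed (−0.95, 0.00431).

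Leaving out each mouse in turn gave 0.10 to 0.43 for *Etv1*, 0.20 to 0.44 for *Rorb*, −0.50 to −0.19 for *Calb1*, −0.63 to −0.33 for *Calb2* and −0.85 to 1.05 for *Pvalb*, and the calls and the turned sign came only without B8. edgeR called 1 gene in all 7 mice, 1 to 9867 with a mouse left out (9867 without B8), 10425 (5101 higher and 5324 lower) against the P2 mice, 0 in the P4 mice alone and 6965 (2983 and 3982) with the correction and without B8. DESeq2 called 1994 (1414 and 580) and limma-voom 10583 (5281 and 5302). Other factors, filters and thinning changed no direction and no call of the 8 markers. *Pvalb* had 12 to 108 counts per library and the other markers 337 or more.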
